A study of Mus musculus with 9 samples.

Results

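The interferon receptor chains and the Janus kinases (JAKs) that they carry were examined as transcripts in sorted intestinal epithelial cells (IECs) after activation of natural killer T (NKT) cells. The 9 genes were taken by symbol: the IFN-γ receptor chains Ifngr1 and Ifngr2, the type I interferon receptor chains Ifnar1 and Ifnar2, the type III interferon receptor chains Ifnlr1 and Il10rb, and the kinases Jak1, Jak2 and Tyk2. All 9 were among the 29288 genes of the count table, and all 9 were among the 18933 genes that passed the filter on low counts. RNA was sequenced in bulk from live EpCAM+ Ter119- CD31- CD45- cells sorted from proximal small intestinal crypts of wild-type female C57BL/6J mice, which were 7 to 10 weeks old per the study's methods. Of 9 mice, 3 received PBS and were sampled at 18 h (control), 3 were sampled 18 h after an intraperitoneal dose of 2 µg of α-galactosylceramide (18h-αGal), and 3 were sampled 72 h after the same dose (72h-αGal). α-galactosylceramide is a glycolipid that the molecule CD1d presents to NKT cells and that activates them. No control was sampled at 72 h, so treatment and time of sampling cannot be told apart there. In bulk RNA, fewer cells of a type and less RNA per cell cannot be told apart either.

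Each interferon family signals through a receptor of paired chains, none of which is itself a kinase. JAK1 and JAK2 are bound by the IFN-γ receptor, and JAK1 and TYK2 by the type I and type III receptors. When ligand joins the chains, the kinases phosphorylate one another, the receptor tails and then STAT proteins, which move to the nucleus and switch on interferon target genes. In the intestine, epithelial cells are a main site of response to type III interferon, and IFN-γ is a product of activated NKT cells.

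Of the 9 genes, 4 lie side by side in a stretch of chromosome 16 that spans 191.2 kb and holds 9 annotated genes (chr16:91372783-91564007, build GRCm38.p6 of RefSeq, all 4 on the + strand). They are Ifnar2 from 91372783 to 91405589, Il10rb from 91406157 to 91425834, Ifnar1 from 91485032 to 91510523 and Ifngr2 from 91547059 to 91564007. The other 5 are spread over the genome. Ifnlr1 is on chromosome 4 from 135686457 to 135708181, as is Jak1 from 101151974 to 101265282. Ifngr1 is on chromosome 10 from 19591949 to 19610229, Tyk2 on chromosome 9 from 21104068 to 21131393 and Jak2 on chromosome 19 from 29251803 to 29313095. All 9 are protein-coding.

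RefSeq promoter windows, each of 300 bases from 250 before to 50 after a transcription start, were at hand for 8 of the 9 genes, all but Il10rb. The start used was the outermost base of the gene for 5 of the 8 and lay inside the gene by 183 bases for Ifnar1, 59 for Jak1 and 118 for Tyk2. They were searched on both strands for 2 motifs: the gamma-activated site (GAS, TTCNNNGAA), to which STAT dimers bind, and the interferon-stimulated response element (ISRE, GAAA and GAAA with any 2 bases between), to which interferon-activated complexes with IRF9 bind. A GAS match was present in 8.3% and an ISRE match in 3.44% of 32851 promoter windows of mouse genes. Among the receptor chains and kinases, Ifnar1 and Ifnar2 held a GAS match and none of the 8 held an ISRE match. The match began 5 bases before the start used in the Ifnar1 window, which is inside the gene bounds given above, and 214 bases before it in the Ifnar2 window. Both windows are shown for these matches, in capitals.
Ifnar1 (chr16:91484965-91485264, + strand): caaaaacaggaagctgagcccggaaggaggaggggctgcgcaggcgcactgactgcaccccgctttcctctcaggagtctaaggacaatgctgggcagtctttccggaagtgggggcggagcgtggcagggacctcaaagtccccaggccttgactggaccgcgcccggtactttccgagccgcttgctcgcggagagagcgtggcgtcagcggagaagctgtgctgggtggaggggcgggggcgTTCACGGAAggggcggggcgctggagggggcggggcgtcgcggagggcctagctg
Ifnar2 (chr16:91372533-91372832, + strand): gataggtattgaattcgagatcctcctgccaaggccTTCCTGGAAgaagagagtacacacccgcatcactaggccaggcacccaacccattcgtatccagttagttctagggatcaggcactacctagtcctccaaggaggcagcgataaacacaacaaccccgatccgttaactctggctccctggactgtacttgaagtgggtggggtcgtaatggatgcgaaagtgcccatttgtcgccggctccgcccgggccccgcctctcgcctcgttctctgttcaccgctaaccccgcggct
The windows of Ifngr2 and Jak2 held neither motif and are shown for their base composition. Of the 9 genes, Ifngr2 had the smallest unadjusted edgeR p at 18 h against control, and Jak2 between 18 h and 72 h.
Ifngr2 (chr16:91546809-91547108, + strand): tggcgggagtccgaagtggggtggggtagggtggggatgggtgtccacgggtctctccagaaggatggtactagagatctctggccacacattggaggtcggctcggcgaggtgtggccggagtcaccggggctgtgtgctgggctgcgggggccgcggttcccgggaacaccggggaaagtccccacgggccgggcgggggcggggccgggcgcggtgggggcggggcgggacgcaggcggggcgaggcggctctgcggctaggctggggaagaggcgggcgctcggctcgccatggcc
Jak2 (chr19:29251553-29251852, + strand): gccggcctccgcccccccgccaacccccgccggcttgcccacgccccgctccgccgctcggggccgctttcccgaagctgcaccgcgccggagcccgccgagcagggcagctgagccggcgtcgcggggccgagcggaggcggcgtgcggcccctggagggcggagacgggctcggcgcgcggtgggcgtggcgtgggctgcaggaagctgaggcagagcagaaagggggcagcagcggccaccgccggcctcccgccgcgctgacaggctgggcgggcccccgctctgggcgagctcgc
Socs1, which encodes an inhibitor of JAKs and is itself an interferon target, is shown beside them because its transcript changed after α-galactosylceramide. Of 29 regulators listed below, 20 had a window, with GAS matches in Cish and Socs3 and ISRE matches in Rack1 and Socs1. At 18 h against control, Socs1 rose and Socs3 fell with an edgeR adjusted p under 0.05. Cish and Rack1 did not reach that threshold. The Socs1 window held ISRE matches that began 83 and 77 bases before the start used and overlap each other, in capitals.
Socs1 (chr16:10785487-10785786, - strand): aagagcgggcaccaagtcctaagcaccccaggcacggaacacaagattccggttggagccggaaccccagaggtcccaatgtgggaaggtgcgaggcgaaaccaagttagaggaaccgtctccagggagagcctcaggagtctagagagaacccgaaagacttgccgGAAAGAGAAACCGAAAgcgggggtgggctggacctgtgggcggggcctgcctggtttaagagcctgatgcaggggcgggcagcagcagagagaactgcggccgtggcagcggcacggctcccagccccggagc
The 8 windows of the receptor chains and kinases were rich in CpG dinucleotides, with 14 (Ifngr1) to 44 (Jak2) in 300 bases, where the median of all windows was 7. Their GC content lay between 57.0% and 81.0%, and the median of all windows was 52.7%. Among 16 interferon target genes listed from general knowledge, 13 had a window and 10 of these held a GAS or an ISRE match. Of those with a match, Gbp2, Irf1, Oas1a and Psmb8 had an edgeR adjusted p under 0.05 at 18 h against control. Cxcl10, Gbp3, Ifit1, Ifit3, Isg15 and Rsad2, each with an ISRE match, did not. Cxcl9, Psmb9 and Tap1 were under that threshold, and their windows held neither motif. A match is a run of letters and not a measured binding site.

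Total counts per library ranged from 8887861 to 32722293, and a floor of 3 counts corresponded to 0.0917 to 0.338 CPM, the count relative to the library total. The epithelial label was borne out by its markers: 9 epithelial marker genes such as Epcam, Vil1 and Cdh1 summed to 5038 to 6549 CPM in every library. Single genes of that sum varied more. Krt20 was at 153 to 366 CPM in controls, 308 to 383 in 18h-αGal and 73.6 to 204 in 72h-αGal libraries. Vil1 was at 712 to 1240, 1090 to 1350 and 540 to 792 CPM in the same order. Krt18 and Cdx2 were instead higher in every 72h-αGal than in every 18h-αGal library. Leukocyte markers, of which 24 of 28 were in the table, summed to 27.1 to 39.3 CPM in controls, 26.7 to 45.8 CPM in 18h-αGal and 50.05 to 59.2 CPM in 72h-αGal libraries. Most of that sum was Cd68, at 12.4 to 42.1 CPM over the libraries. Ptprc, the pan-leukocyte marker CD45, was at 0.247 to 3.07 CPM, and T cell genes had few reads, such as Lck with 2 to 52 counts and Cd3e with 0 in the 3 controls and up to 21 elsewhere. Endothelial markers, 8 of 8 in the table, summed to 5.96 to 11.1, 3.62 to 5.13 and 7.93 to 10.6 CPM in the same order. Fibroblast and muscle markers, 8 of 9 in the table, summed to 2.93 to 4.28, 0.835 to 1.07 and 1.07 to 2.82 CPM. The erythroid list had 1 of 6 genes in the table (Alas2), at 0.9 to 4.0 CPM. Control replicate 3 was the shallowest library and stood apart on the second principal component of the 500 most variable genes, at 46.15 against -14.62 to -0.01 for the other 8. Log2 fold changes of the 9 receptor chains and kinases against control are therefore given with and without it. Those of all other genes against control are given only with it.

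Levels of the 9 transcripts were compared per length, in RPKM, the count relative to exon length and to the library total. Ifngr1, the ligand-binding chain of the IFN-γ receptor, had the highest level at 95.9 ± 7.49 RPKM (SD, n = 9 libraries), above 98.2% of tested genes. Its partner Ifngr2, the chain that brings JAK2 to the receptor, followed at 36.4 ± 8.13 RPKM. Both chains lay above the other 7 genes in every library.

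A middle group came next in RPKM. Jak2 stood at 18.1 ± 2.62, Ifnar1 at 17.2 ± 1.57, Jak1 at 15.6 ± 1.42, Il10rb at 14.2 ± 2.34 and Tyk2 at 11.7 ± 0.982 (SD, n = 9). Neighbours in this group overlapped over the libraries: Jak2 was above Ifnar1 in 5 of 9 libraries, Jak1 above Il10rb in 6 of 9 and Il10rb above Tyk2 in 7 of 9. Ifnar1 was above Jak1 in 8 of 9. These counts use the length of all exons of a gene. With the length of the canonical transcript Jak1 led the group at 21.7 ± 1.97 RPKM, before Jak2 at 20.2 ± 2.92, Jak2 was above Ifnar1 in 8 of 9 libraries, Jak1 above Il10rb in 9 of 9 and Ifnar1 above Jak1 in 0 of 9. The order inside the group thus depends on the length used, while the ranks of the other 4 genes were equal under both.

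The ligand-binding chain of the type III receptor, Ifnlr1, had a lower level of 5.9 ± 1.65 RPKM. Ifnar2, the chain that binds type I interferon most tightly, was the lowest of the 9 at 1.61 ± 0.408 RPKM, above 37.9% of tested genes. Tyk2 was above Ifnlr1, and Ifnlr1 above Ifnar2, in 9 of 9 libraries. The plot of levels per length shows these steps.

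**Figure D1:**
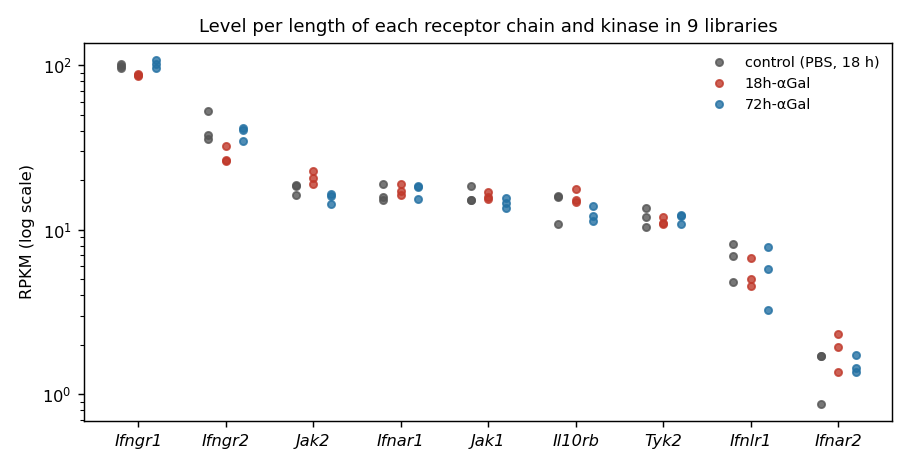
Level of each receptor chain and kinase in RPKM (log axis), with a point for each of 9 libraries coloured by group. Ifngr1 and Ifngr2 sit above the other 7 genes, Ifnlr1 and Ifnar2 lie lowest, and neighbours in the order of the 5 genes between overlap in range.

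Receptor chains that work together were thus not at equal levels. Ifngr1 exceeded Ifngr2 by 1.93-fold to 3.31-fold per length over the 9 libraries, and Ifnar1 exceeded Ifnar2 by 6.98-fold to 21.7-fold. The largest of these ratios came from control replicate 3, where Ifnar2 had 28 raw counts. In the GENCODE vM39 annotation, 20.8% of the exon bases of Ifnar2 and 39.3% of those of Il10rb are shared with a readthrough gene on the same strand, Gm21970, which is not analysed here. Jak1 shares 24.8% of its exon bases with Raver2 on the opposite strand, a gene with 284 counts in all 9 libraries together. Reads in shared bases may have been dropped or assigned elsewhere, so the levels of Ifnar2 and Il10rb in particular are uncertain.

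The first comparison asked whether the receptor chains and kinases differed between 18h-αGal and control IECs. None of the 9 was called, that is, none reached an adjusted p below 0.05 in the quasi-likelihood test of edgeR, beside 5.96% of the 18933 genes tested (3.27% higher and 2.69% lower). At an unadjusted p under 0.05 the count was 1 of 9, beside 20.8% of tested genes, and DESeq2 also called 0 of 9. The median of their log2 fold changes was 0.01, beside -0.03 for all tested genes, and the median absolute log2 fold change was 0.17, beside 0.37 for all tested genes. The 0.37 takes in genes of every level, and genes at levels like those of the 9 were not compared apart. For 8 of the 9 the 95% interval of the change lay within 2-fold in either direction, and for 6 within 1.5-fold.

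Ifngr2 came closest to a call. Its normalised counts (raw counts divided by a size factor per library) were 2571, 2580 and 4194 in controls and 1926, 1925 and 2520 in 18h-αGal mice. All 3 treated mice were below all 3 controls, by a narrow gap between 2520 and 2571, and the highest value was that of control replicate 3. The groups were apart in this direction for 1 of the 9 genes and for 12.3% of all tested genes. The mean was 3115 ± 934 in controls and 2123 ± 343 in treated mice (SD, n = 3 each), and the log2 fold change was -0.54 ± 0.18 (SE, edgeR p 0.0102 unadjusted and 0.0999 adjusted). Without control replicate 3 the log2 fold change was -0.28 (edgeR adjusted p 0.267). Without TMM scaling of the libraries (trimmed mean of M values) or without the filter on low counts, the edgeR adjusted p was 0.0424 and 0.0446. The summed endothelial and fibroblast markers given above were lower in 18h-αGal than in control libraries, and their part in the difference was not tested.

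The partner chain Ifngr1 had normalised counts of 4027, 3701 and 4536 in controls and 3536, 3572 and 3839 at 18 h. The groups overlapped between 3701 and 3839. Its log2 fold change was -0.16, with a 95% interval from -0.38 to 0.07 and an edgeR adjusted p of 0.454.

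For the type I receptor, Ifnar1 had 1268, 1147 and 1669 normalised counts in controls and 1395, 1302 and 1631 at 18 h. Every treated value fell within the range of the controls, and the log2 fold change was 0.10 with a 95% interval from -0.24 to 0.43. Ifnar2 had 119, 112 and 66.6 normalised counts in controls and 95.8, 162 and 144 at 18 h. These groups overlapped as well, and at 28 to 202 raw counts a library the 95% interval of its log2 fold change of 0.41 ran from -0.30 to 1.13, the only one of the 9 to reach past 2-fold.

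For the type III receptor, Ifnlr1 had 563, 372 and 730 normalised counts in controls and 414, 374 and 592 at 18 h, which overlap, with a log2 fold change of -0.26 (95% interval from -0.98 to 0.46). Il10rb, the chain that this receptor shares with those of IL-10 and IL-22, had 1330, 868 and 1488 in controls and 1245, 1285 and 1584 at 18 h. Here too the groups overlapped, and the log2 fold change was 0.17 (95% interval from -0.22 to 0.56).

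Among the kinases, Jak1 was the steadiest. It had 2278, 2671 and 2527 normalised counts in controls and 2578, 2399 and 2491 at 18 h, a log2 fold change of 0.01 with a 95% interval from -0.24 to 0.25. Jak2 had 2165, 1841 and 2434 in controls and 2458, 2255 and 2900 at 18 h. The means were 2147 ± 297 and 2538 ± 330 (SD, n = 3 each) with overlap between 2255 and 2434, and the log2 fold change of 0.25 ± 0.13 (SE) had an unadjusted p of 0.0835 and an adjusted p of 0.316 in edgeR. Tyk2, with 1168, 1281 and 1678 normalised counts in controls and 1259, 1232 and 1445 at 18 h, overlapped throughout, with a log2 fold change of -0.06 (95% interval from -0.37 to 0.26).

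Without control replicate 3, none of the 9 was called at 18 h either. The log2 fold changes were then -0.08 for Ifngr1, 0.26 for Ifnar1, 0.21 for Ifnar2, -0.03 for Ifnlr1 and 0.32 for Il10rb. Among the kinases they were 0.01 for Jak1, 0.34 for Jak2 (edgeR p 0.0283 unadjusted and 0.165 adjusted) and 0.10 for Tyk2, whose sign turned.

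**Figure D2:**
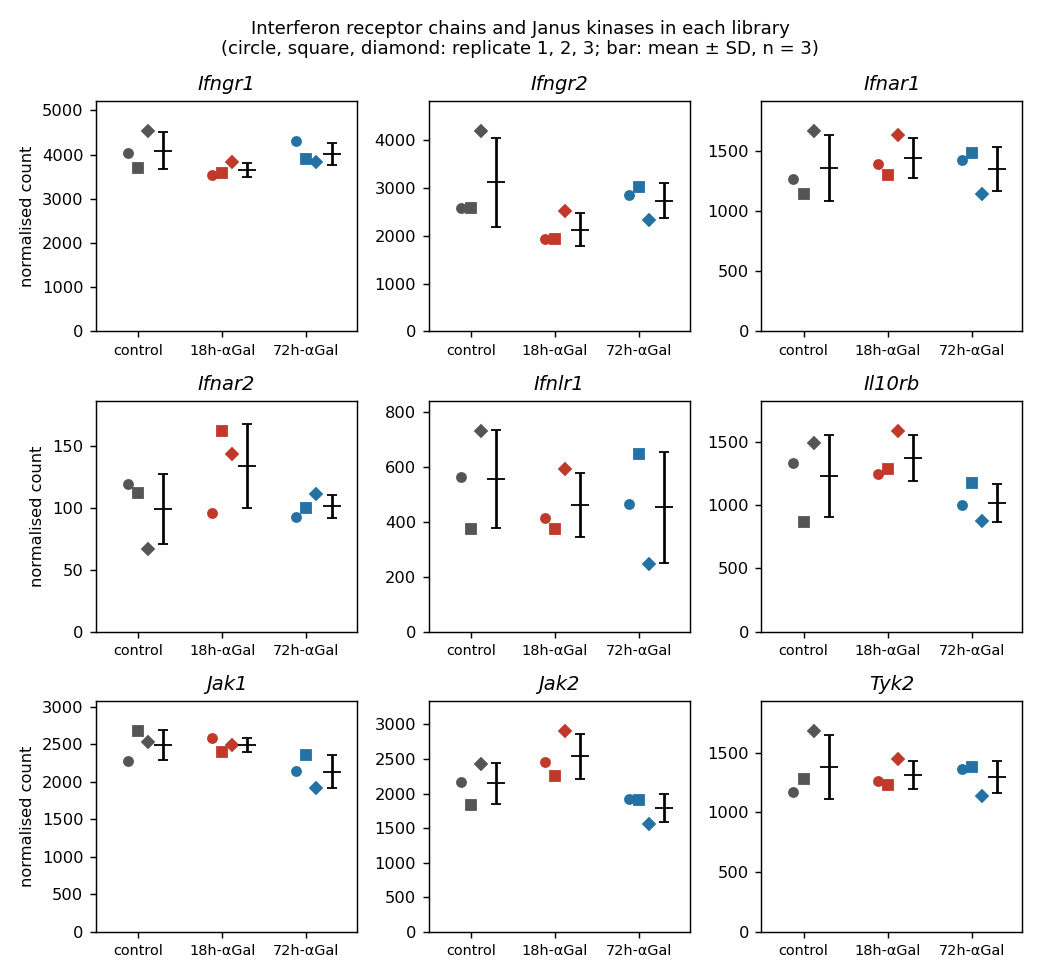
Normalised counts of the 9 genes in each of 9 libraries, 1 panel per gene, with points for mice and bars for the mean of each group (n = 3). Control and 18h-αGal points overlap in 8 of 9 panels, and the 72h-αGal points of Jak2, Il10rb and Jak1 lie below the 18h-αGal points.

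At 72 h, the same 9 genes were compared with the 18 h controls. None was called by edgeR, beside 0.0264% of tested genes (5 genes), none had an unadjusted p under 0.05, beside 5.94%, and DESeq2 called 0 of 9. All 9 overlapped between the groups, where 12.7% of tested genes did not (6.36% higher and 6.3% lower). The log2 fold change was negative for 7 of the 9, with a median of -0.17 beside 0.00 for all tested genes, and all 9 of the 95% intervals lay within 2-fold.

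The smallest unadjusted p-values at 72 h were those of Jak1 and Jak2. Jak1 had 2146, 2349 and 1910 normalised counts at 72 h, which is -0.21 ± 0.11 (SE) as a log2 fold change (edgeR unadjusted p 0.0881). Jak2 had 1921, 1907 and 1563, which is -0.24 ± 0.14 as a log2 fold change (edgeR unadjusted p 0.0961). Of the 3 mice at 72 h, 1 lay inside the control range for Jak1 and 2 for Jak2. Tyk2 had 1366, 1381 and 1141 at 72 h and a log2 fold change of -0.07.

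The receptor chains at 72 h overlapped the controls as well. Ifngr1 had 4296, 3907 and 3831 normalised counts (log2 fold change -0.01) and Ifngr2 had 2848, 3027 and 2331 (-0.17). Ifnar1 had 1425, 1484 and 1144 (0.01) and Ifnar2 had 92.7, 99.8 and 111 (0.03). Ifnlr1, with 465, 646 and 245, and Il10rb, with 997, 1173 and 874, had log2 fold changes of -0.28 and -0.26. The 72h-αGal values of Ifnlr1 spread from below the lowest control to within the control range.

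Leaving out control replicate 3 turned the sign at 72 h for Ifngr1 (0.07), Ifngr2 (0.10), Ifnar2 (-0.17) and Tyk2 (0.09). The log2 fold changes of the other 5 were then 0.17 for Ifnar1, -0.05 for Ifnlr1, -0.11 for Il10rb, -0.20 for Jak1 and -0.15 for Jak2. None of the 9 was called.

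The comparison of both times with each other shares its 18h-αGal and 72h-αGal mice with the comparisons above. Here Jak2 was the only one of the 9 that edgeR called, beside 10.2% of tested genes (4.18% higher and 6.04% lower at 72 h). Its 72 h values of 1921, 1907 and 1563 were all below its 18 h values of 2458, 2255 and 2900. JAK2 is the kinase of the IFN-γ receptor and also of the growth hormone, prolactin and erythropoietin receptors. Its transcript fell by 0.49 ± 0.14 (SE) on the log2 scale, to 0.712-fold (95% interval from 0.583 to 0.869), with an edgeR adjusted p of 0.032. The call was lost when control replicate 1 (0.0554), 18h-αGal replicate 1 (0.0658) or 3 (0.117), or 72h-αGal replicate 1 (0.0712), 2 (0.0665) or 3 (0.161) was left out, with these adjusted p-values from edgeR and log2 fold changes that stayed between -0.57 and -0.39. The summed leukocyte markers (50.05 to 59.2 against 26.7 to 45.8 CPM, mostly Cd68) and endothelial markers (7.93 to 10.6 against 3.62 to 5.13 CPM) were higher in 72h-αGal than in 18h-αGal libraries, and their part in the difference was not tested. Single epithelial markers also differed between these times in both directions, as given above, and their part was not tested either.

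Jak1 and Il10rb were likewise lower in all 3 mice at 72 h than in all 3 at 18 h. With Jak2 they made 3 of 9 genes whose groups were apart in this direction, beside 16.3% of tested genes (32.8% in either direction), and Jak1 and Il10rb were not called. For Il10rb the log2 fold change was -0.43 ± 0.18 (SE), with edgeR p-values of 0.0346 unadjusted and 0.165 adjusted. Jak1 had one of -0.22 ± 0.11 with an edgeR adjusted p of 0.27.

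Ifngr2 lay in the opposite direction, with a log2 fold change of 0.37 ± 0.18 between 18 h and 72 h, an unadjusted p of 0.0588 and an adjusted p of 0.227 in edgeR. The other 5 genes had log2 fold changes between -0.39 (Ifnar2) and 0.14 (Ifngr1). The median over all 9 was -0.09, beside 0.05 for all tested genes. The median absolute change was 0.21, beside 0.40, again over tested genes of every level. Over all 3 comparisons, 25 of 27 intervals lay within 2-fold in either direction. The plot of fold changes shows all 27.

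**Figure D3:**
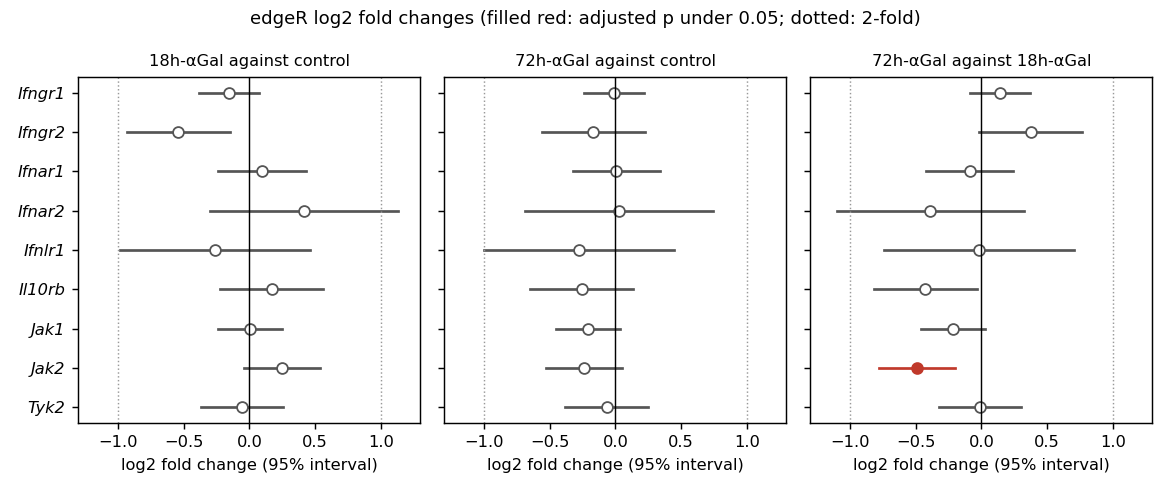
Log2 fold change of each of the 9 genes in the 3 comparisons, with 95% intervals from edgeR and the line at 0 for no difference. Jak2 in 72h-αGal against 18h-αGal, at -0.49, is the only value with an adjusted p under 0.05.

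Ratios of partner transcripts within a library do not depend on how libraries are scaled, and 5 ratios were compared in each comparison with an exact two-sided permutation test, in which 3 against 3 mice cannot go below p = 0.1. The log2 ratio of Il10rb to Ifnlr1 per length was 1.20, 1.18 and 0.99 in controls and 1.55, 1.74 and 1.38 at 18 h. All 3 treated mice were above all 3 controls. The difference of 0.43, or 1.35-fold, had an exact permutation p of 0.1, and 0.5 after adjustment over the 5 ratios. Without control replicate 3 it was 0.37.

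The ratio of the IFN-γ receptor chains, Ifngr2 to Ifngr1, was -1.26 ± 0.28 on the log2 scale in controls and -1.63 ± 0.16 at 18 h (SD, n = 3 each), with overlap and an exact permutation p of 0.2. The difference of -0.36 was -0.21 without control replicate 3. Between 18 h and 72 h, the log2 ratio of Jak2 to Jak1 went from 0.37 ± 0.17 to 0.10 ± 0.08 and that of Tyk2 to Jak1 from -0.51 ± 0.13 to -0.30 ± 0.06 (SD, n = 3 each). In both the groups did not overlap, and the exact permutation p was 0.1 (0.25 adjusted over the 5 ratios). At 72 h against control, all 5 ratios overlapped, with exact permutation p-values between 0.4 and 1.0.

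**Figure D4:**
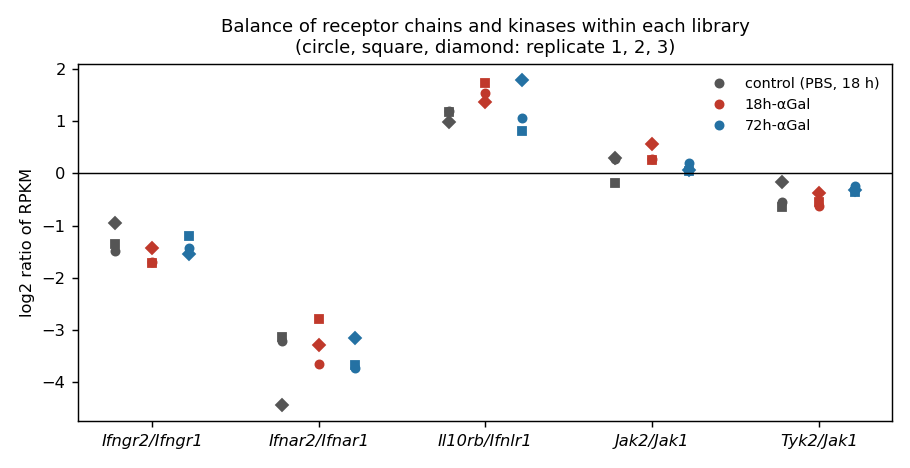
Log2 ratio of partner transcripts per length in each of 9 libraries, for 5 pairs, with points for mice (n = 3 a group). The 18h-αGal points lie above the control points for Il10rb to Ifnlr1 and above the 72h-αGal points for Jak2 to Jak1.

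Around the receptors, genes of the same pathway were counted in lists written from general knowledge, with earlier results of these data known. Of 29 regulators that act at the receptor or on the kinases, all of them tested, edgeR called 2 higher and 2 lower at 18 h against control, beside 3.27% and 2.69% of all tested genes. Socs1, which encodes an inhibitor of JAK1, JAK2 and TYK2, rose from 164 ± 21.4 to 496 ± 65.5 normalised counts (SD, n = 3), which is 1.60 ± 0.22 as a log2 fold change (edgeR adjusted p 0.00106). Usp18, which encodes a protein that holds back signalling at IFNAR2, rose by 2.35 ± 0.56 on the log2 scale with an edgeR adjusted p of 0.0316.

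The other called regulators fell. Socs3, an inhibitor best known at receptors of the IL-6 family, went from 731 ± 221 to 347 ± 94.4 normalised counts, which is -1.07 ± 0.25 as a log2 fold change (edgeR adjusted p 0.0238). Socs2, a regulator of growth hormone signalling, had -0.57 ± 0.12 as its log2 fold change (edgeR adjusted p 0.00974). The median of the 29 was -0.08, beside -0.03 for all tested genes.

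At 72 h against control edgeR called none of the 29 regulators, beside 0.0264% of all tested genes. None had an unadjusted p under 0.05 in edgeR, beside 5.94%. The smallest unadjusted p-values in edgeR were those of Ptpn6 (0.0761), which encodes a phosphatase, and Socs4 (0.113). Between 18 h and 72 h, 4 were higher and 4 lower by edgeR, beside 4.18% and 6.04% of all tested genes. Socs1 and Usp18 were lower at 72 h, with log2 fold changes of -1.43 and -2.97, and Socs2 and Socs3 were higher, with 0.58 and 1.21.

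Among the signal transducers, 7 that passed the filter are reported. Stat2, a partner of IRF9 in type I and type III interferon signalling, had 982 ± 663 normalised counts in controls and 3108 ± 397 at 18 h (SD, n = 3 each), a log2 difference of 1.70 ± 0.43 (SE) that was not called (edgeR adjusted p 0.067). Irf9 had a log2 difference of 0.39 ± 0.15 at 18 h and was not called either (edgeR adjusted p 0.153). At 72 h against control edgeR called none of the 7, beside 0.0264% of all tested genes. None had an unadjusted p under 0.05 in edgeR, beside 5.94%, and Stat6 (-0.20) and Stat3 (-0.17) had the smallest. Between 18 h and 72 h, Stat2 and Stat3, a transducer of IL-6 and IL-22 signals, fell by 2.02 and 0.52 on the log2 scale. Both were called by edgeR, as the only ones of the 7, beside 10.2% of all tested genes.

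The 16 interferon target genes were all tested and all had a positive log2 fold change at 18 h, with a median of 2.00, and edgeR called 9 of them higher and 0 lower, beside 3.27% and 2.69% of all tested genes. The examples named by rule were Gbp2, a guanylate-binding protein gene (log2 fold change 4.55), Cxcl9, a T cell chemokine gene (5.85), Psmb9, an immunoproteasome subunit gene (1.99), and Ciita, the master regulator of MHC class II genes (2.53). At 72 h against control, 0 of the 16 were called by edgeR, beside 0.0264% of all tested genes. Of the 16, 1, Cxcl9, had an unadjusted p under 0.05 in edgeR, beside 5.94%. Between 18 h and 72 h, all 16 had a negative value and 10 were called lower, with a median of -2.16, beside 6.04% of all tested genes. The median absolute change of the 9 receptor chains and kinases at 18 h against control and between 18 h and 72 h was 0.17 and 0.21, as given above. Since the list of 16 was chosen with earlier results of these data known, its counts are not an independent test.

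As other receptor chains that signal through JAKs, 35 were listed, of which 29 were in the table and 14 were tested. At 18 h edgeR called 1 of the 14, beside 5.96% of all tested genes: Il13ra1, which forms a receptor for IL-4 and IL-13 with the IL-4 receptor chain. It rose from 2011 ± 669 to 4115 ± 523 normalised counts (SD, n = 3), which is 1.05 ± 0.20 as a log2 fold change (edgeR adjusted p 0.008). It fell by 1.36 on the log2 scale between 18 h and 72 h, with an edgeR adjusted p of 0.00132, again as the only one of the 14, beside 10.2% of all tested genes. None of the 14 was called at 72 h against control, beside 0.0264% of all tested genes. There Il11ra1 and Prlr had the smallest unadjusted p-values in edgeR (0.0828 and 0.09).

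Few ligand transcripts could be followed. Of 17 interferon genes listed, 5 were in the table and 1, Ifnk, passed the filter, with 11 to 59 raw counts in a library. Ifnk had -0.42 as its log2 fold change at 18 h against control (edgeR adjusted p 0.82). Ifnl3, a type III interferon gene, had 9 counts in 18h-αGal replicate 1 and 0 in the other 8 libraries. The other 12, Ifng among them, are not analysed here.

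**Figure D5:**
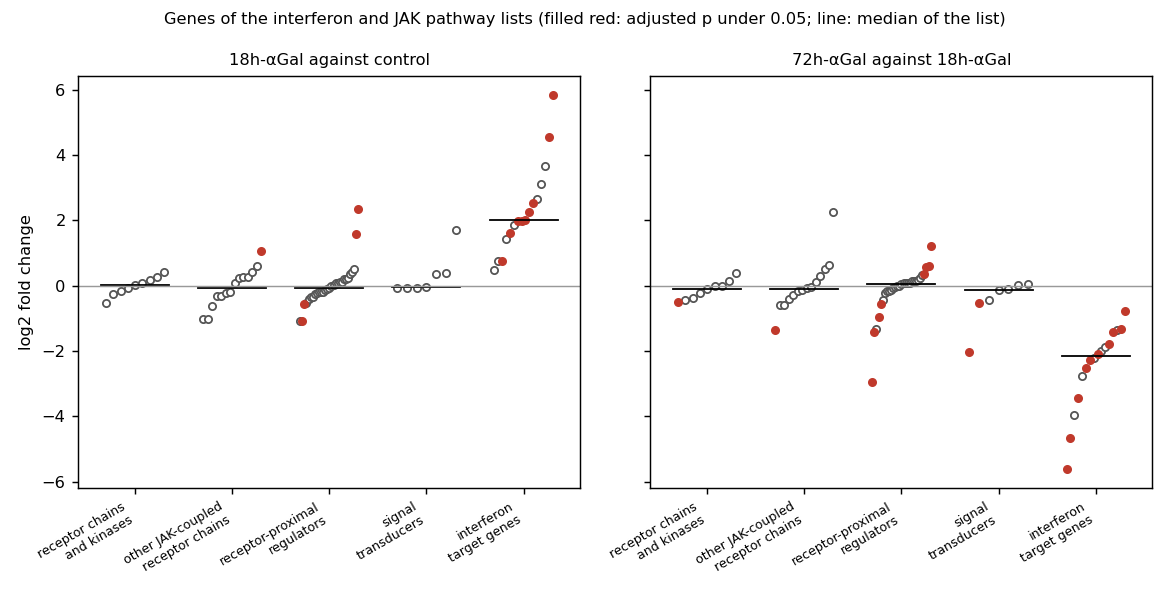
Log2 fold changes of single genes in the list of 9 receptor chains and kinases and in 4 lists of related genes, at 18 h against control and between 18 h and 72 h. Filled points have an edgeR adjusted p under 0.05 and lines are list medians, which lie at 2.00 and -2.16 for the interferon target genes and at 0.01 and -0.09 for the receptor chains and kinases.

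For each of the 9 genes, the tested genes with the most similar profile were sought among 11149 with a mean of at least 100 counts, as the smallest root-mean-square difference of centred log2 CPM over the 9 libraries. For Jak2 these were Arl5a, at a difference of 0.0455, and Atp5f1a, at 0.0557, where the spread of Jak2 itself over the libraries was 0.246. For Ifngr2 they were Cldn23 (0.0775) and Eps8l3 (0.0902), against a spread of 0.316. The profile of Tyk2 was nearest to Ttc7 and Cflar, that of Ifngr1 to Plagl2 and Brpf3, that of Ifnar1 to Cds1 and Camta2, and that of Jak1 to Haus2 and Azin1. Il10rb was nearest to Tnip1 and Srp19. The genes with fewest reads had more distant neighbours, at 0.142 for Ifnar2 (Rtn4ip1) and 0.155 for Ifnlr1 (Nlrp1b). None of the 9 was among the neighbours of another.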

How the data were processed

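The authors depleted ribosomal RNA, made directional libraries and sequenced them as 100 bp reads. Per the labels, the submitters' processing notes name HISAT2, featureCounts from Subread and DESeq2 1.42.0, with build GRCm38 (mm10), while the study's methods name GRCm39. The strand setting and annotation release are not given in the sources used here. Positions and promoters are therefore printed only from RefSeq GRCm38.p6, and exon lengths for RPKM come from GENCODE vM39, which 28480 of 29288 identifiers matched.

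The authors deposited raw counts per gene, the basis of each test, and a normalised signal, called normalised counts here, equal to the count divided by 1 factor per library. Total counts ranged from 8887861 to 32722293, a 3.68-fold range, and floors of 3 counts cover counting error only. Every table column was mapped to a sample.

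The raw counts were tested with edgeR 4.0.16 (R 4.3.3): filterByExpr, TMM, all 9 libraries in a single robust quasi-likelihood fit, two-sided, with Benjamini-Hochberg adjustment over 18933 genes and calls at an adjusted p under 0.05. Standard errors follow from the F statistic. Each library is from a separate mouse. Alternatives were DESeq2 1.42.0, other scalings and filters, fits of 2 groups only, limma 3.58.1 on log2(normalised counts + 1), a replicate block and leaving out each library.

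The 9 genes, the lists and the marker genes were chosen with earlier results of these data known. Per list and comparison, up to 4 called genes with the smallest adjusted p were named, or, with none called, up to 2 with the smallest unadjusted p. Similar profiles were limited to 2 per gene. In the list of transducers, 1 gene is not reported here, and its values enter no count of that list. Markers, ligands and overlapping genes are also named, with their values already in view.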

Additional observations from a re-analysis of the deposited data

Results flagged for a closer look

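The change after α-galactosylceramide differed between 18 h and 72 h for the 12 genes named for that comparison, by edgeR's direct test of 72h-αGal against 18h-αGal, the comparison in which both times share the same controls. Among the receptor chains and kinases this held for Jak2, with a log2 difference of -0.49, which was lost in 6 of the 9 fits that left out a library. Among the regulators it held for Socs1 (-1.43), Usp18 (-2.97), Socs2 (0.58) and Socs3 (1.21), and among the transducers for Stat2 (-2.02) and Stat3 (-0.52). The receptor chain Il13ra1 had a log2 difference of -1.36. The interferon target genes Gbp2, Psmb9, Ciita and Mx1 had log2 differences of -5.61, -1.79, -2.10 and -2.51. Cxcl9 (-3.43), Ptpn6 (-0.96) and Socs4 (-0.58), named for other comparisons, were called in this one too. Since the 72h-αGal mice had no control of their own time, treatment and time of sampling cannot be told apart in these values.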

How the results depend on the processing

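Of 459 log2 fold changes of the 9 genes under the alternatives, 414 kept their direction and side of the threshold. Where the count of called genes at 18 h against control was 1128, it was 1720 with DESeq2 and 593 in a fit of those groups alone. At 72 h against control, with 5 called, it was 31 with DESeq2 and 13 without the filter on low counts. Ifngr2 at 18 h became the 1 called receptor chain without TMM and without the filter. Leaving out a library moved the called genes between 432 and 1556 at 18 h, 0 and 20 at 72 h against control, and 831 and 2593 between the times, where the called members of the 9 ranged from 0 to 1 (Jak2).

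A replicate block, which treats equal replicate numbers as pairs, gave 781, 1 and 1371 called genes in the 3 comparisons and 0 of the 9 genes in each (Jak2 between the times: -0.48, adjusted p 0.0612). Deviations of same-numbered libraries correlated between -0.15 and 0.115, and the best match carried the same number in 5 of 18 cases. No pairing by number was seen, but with 3 mice a group this check cannot exclude one.

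Signs turned in 36 values, none above 0.282 in size. The cause was not tested. At 18 h, Jak1 turned to -0.0009 (DESeq2), -0.001 (DESeq2 size factors in edgeR), -0.0261 (no TMM) and -0.0022 (stricter filter). At 72 h against control, Ifngr1 turned to 0.0413 (no TMM) and 0.0015 (no filter), and Ifnar1 to -0.0071 (DESeq2), -0.0076 (its size factors) and -0.0019 (limma). Between the times, Ifnlr1 turned to 0.0525 (no TMM) and 0.0044 (block) and Tyk2 to 0.0666 (no TMM). With a library left out, signs also turned within these ranges. At 18 h they were -0.009 to 0.256 for Ifnar1, -0.0266 to 0.317 for Il10rb, -0.0529 to 0.0655 for Jak1 and -0.160 to 0.0998 for Tyk2. At 72 h against control they were -0.0709 to 0.0665 for Ifngr1, -0.283 to 0.0985 for Ifngr2, -0.0942 to 0.172 for Ifnar1, -0.173 to 0.180 for Ifnar2, -0.622 to 0.0248 for Ifnlr1 and -0.167 to 0.0936 for Tyk2. Between the times they were -0.156 to 0.0162 for Ifnar1, -0.364 to 0.282 for Ifnlr1 and -0.0539 to 0.0702 for Tyk2.

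With 3 mice a group, the intervals of Ifnar2 in 2 comparisons reached past 2-fold, so a change of that size cannot be told from none for it.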

Other observations

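The receptor chains and kinases tended to be high or low in the same mice of a group. Control replicate 3 had the highest normalised count of the 3 controls for 7 of the 9 genes, beside 36.8% of all tested genes. Replicate 3 of 18h-αGal likewise had the highest value of its group for 7 of 9, beside 38.0% of tested genes. Replicate 3 of 72h-αGal had the lowest value of its group for 8 of 9, beside 37.2% of tested genes, and Ifnar2 was the exception. The 9 values of a library share its scaling factor, and these counts were made after the values were seen. In CPM, the epithelial markers Krt20 and Vil1 were also highest in replicate 3 of controls and 18h-αGal and lowest in replicate 3 of 72h-αGal. Cdh1 and Krt18 were instead lowest in replicate 3 of controls and 18h-αGal. The part of cell composition in this pattern was not tested.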
